A study of Homo sapiens with 6 samples.

Results

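LINC00152, also known as CYTOR (cytoskeleton regulator RNA), was read by 3 probes on 6 one-color arrays, 3 of the androgen-dependent prostate cancer cell line LNCaP and 3 of its derivative LNCaP-AI. LNCaP was grown in fetal bovine serum, and LNCaP-AI was derived from it by long-term culture in charcoal-stripped serum, which is depleted of androgens. Both are human cells for which the labels name no engineered change. LNCaP-AI is 1 derived line, so that serum, time in culture and the history of the line cannot be told apart here. The 3 probes are those that the study's list of 245 higher lncRNA probes pairs with the symbol LINC00152, 1 of its 211 symbols, out of 58965 transcript probes on the array. They were selected on the same arrays and the same contrast, LNCaP-AI against LNCaP, at more than 2-fold with an unadjusted p below 0.01. That LNCaP-AI is higher is therefore a property of the choice, and the size of the difference is given as a description with no test. The list pairs each probe with its own GENCODE transcript. ASHGA5P014767 is paired with ENST00000413202, ASHGA5P017086 with ENST00000437561 and ASHGA5P018571 with ENST00000455131. Other probes of the gene may be among those listed without a name.

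LINC00152 is a long non-coding RNA that is spliced, polyadenylated and found largely in the cytoplasm. It is known from many tumor types, where high levels go with proliferation, invasion and signaling through EGFR and PI3K/AKT, and it is thought to act in part by binding microRNAs and by guiding chromatin-modifying proteins. The gene lies near the centromere of chromosome 2 and has a near-identical copy on the other arm of the chromosome, MIR4435-2HG (LINC00978), which is itself an abundant lncRNA. In the RefSeq annotation, LINC00152 holds 5 transcripts and overlaps 3 other lncRNA genes, LINC01943, NCAL1 and LOC124906032.

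The likeness of both copies can be read from their promoters, which are shown because they are the sequence of this gene pair that the reference tables hold. Each window holds 250 bases before and 50 after the annotated start in RefSeq (GRCh38.p14), written 5′ to 3′ on the strand of its gene, at chr2:87455177-87455476 on the plus strand for LINC00152 (CYTOR) and chr2:111495112-111495411 on the minus strand for MIR4435-2HG. Capitals mark the longest run that is identical in both.

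CYTOR: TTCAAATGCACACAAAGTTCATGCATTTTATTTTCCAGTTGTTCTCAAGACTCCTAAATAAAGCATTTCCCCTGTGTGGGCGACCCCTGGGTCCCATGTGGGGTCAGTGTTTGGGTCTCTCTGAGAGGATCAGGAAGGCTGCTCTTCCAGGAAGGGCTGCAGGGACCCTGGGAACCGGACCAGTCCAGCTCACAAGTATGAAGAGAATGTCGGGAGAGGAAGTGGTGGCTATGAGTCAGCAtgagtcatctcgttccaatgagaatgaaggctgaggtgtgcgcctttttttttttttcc

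MIR4435-2HG: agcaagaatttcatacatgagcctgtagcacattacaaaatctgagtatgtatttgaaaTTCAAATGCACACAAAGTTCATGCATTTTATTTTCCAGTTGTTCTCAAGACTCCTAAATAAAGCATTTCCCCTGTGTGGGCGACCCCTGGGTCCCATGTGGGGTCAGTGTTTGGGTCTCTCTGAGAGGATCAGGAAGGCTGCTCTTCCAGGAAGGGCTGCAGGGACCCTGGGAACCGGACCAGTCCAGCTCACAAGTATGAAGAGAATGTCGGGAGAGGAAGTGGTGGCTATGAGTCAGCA

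The identical run is 241 bases long with 0 mismatches. It opens the LINC00152 window and ends the MIR4435-2HG window, so that every base the windows have in common at this alignment is the same. The annotated start of MIR4435-2HG stands 59 bases further upstream along this run. The run stops where the MIR4435-2HG window stops, so the LINC00152 bases after it had no counterpart to compare. Where the likeness of the copies ends is not shown. The run ends before the RefSeq start of LINC00152, so it holds none of the transcript from that start. The starts of the GENCODE transcripts paired with the 3 probes were not compared with it. Whether a probe can read this run was therefore not tested. Among 35116 RefSeq promoter windows, only 2 others shared a run of at least 30 bases with that of LINC00152. One is MIR4435-2HG and the other is NCAL1, a lncRNA gene that overlaps LINC00152. The letters TGAGTCA, the binding motif of AP-1, were searched on both strands after the sequence had been seen, as 1 of 2 motifs searched. They occur 2 times in the LINC00152 window, 19 and 9 bases before the start. In the MIR4435-2HG window they occur 1 time, after its annotated start. Of all windows, 4.95% hold 1 or more copies and 0.222% hold 2 or more. The second LINC00152 copy begins right after the identical run, where the MIR4435-2HG window stops, so the counts of the 2 windows cannot be compared. These matches describe letters and not binding. The array files hold no probe sequences, so it was not tested whether the 3 probes lie in sequence shared with MIR4435-2HG, or whether they overlap each other.

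All 3 probes were well above background on 6 of 6 arrays, and none was saturated or flagged as an outlier. ASHGA5P014767 had background-subtracted intensities of 564, 394 and 379.8 on the LNCaP arrays a, b and c. Its intensities on the LNCaP-AI arrays 1, 2 and 3 were 2195, 2062 and 2151. ASHGA5P017086 had 519, 348 and 327 in LNCaP, and 2003, 1823 and 1743 in LNCaP-AI. ASHGA5P018571 had 570.4, 413 and 355 in LNCaP, and 2094, 1990.02 and 2037 in LNCaP-AI. On each probe the dimmest LNCaP-AI array was brighter than the brightest LNCaP array, before any normalization. Local background lay between 22 and 35 on all arrays, far below these intensities. The error that the scanner software gives each of these spots was 10.0% to 10.2% of its intensity. This share was nearly the same for the dimmest and the brightest of them. Each probe has 1 spot per array, so this estimate was not checked against repeated spots. In LNCaP the probes were brighter than 59.9% to 65.8% of the spots that were well above background on the same array. In LNCaP-AI they were brighter than 82.7% to 87.4%. The 3 probes therefore gave signal in the parental line as well, at a middling brightness. Their difference between the lines is between measured signals and not a bound. Whether part of the signal in either line comes from MIR4435-2HG was not tested.

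After quantile normalization the log2 signals of ASHGA5P014767 were 8.82, 8.76 and 8.61 on the LNCaP arrays a, b and c. On the LNCaP-AI arrays 1, 2 and 3 they were 11.25, 10.79 and 11.15. The LNCaP mean was 8.73 ± 0.10 (SD, n = 3) and the LNCaP-AI mean 11.06 ± 0.24 (SD, n = 3), a log2 fold change of 2.34, or 5.05-fold. The groups stood 1.97 log2 apart at their nearest arrays. For ASHGA5P017086 the log2 signals were 8.70, 8.57 and 8.40 in LNCaP and 11.115, 10.61 and 10.85 in LNCaP-AI. The means were 8.56 ± 0.15 (SD, n = 3) and 10.86 ± 0.25 (SD, n = 3), a log2 fold change of 2.30, or 4.92-fold. The nearest arrays of the lines were 1.91 log2 apart. ASHGA5P018571 had log2 signals of 8.84, 8.83 and 8.52 in LNCaP and 11.18, 10.74 and 11.07 in LNCaP-AI. Its means were 8.73 ± 0.18 (SD, n = 3) and 10.997 ± 0.23 (SD, n = 3), a log2 fold change of 2.27, or 4.82-fold. Here the nearest arrays were 1.90 log2 apart. On all 3 probes LNCaP-AI was higher in 9 of 9 pairs of arrays, with single pairs between 3.73-fold and 6.58-fold. In RNA from whole cultures, a higher level in each cell and a larger share of cells that express the gene cannot be told apart.

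**Figure D1:**
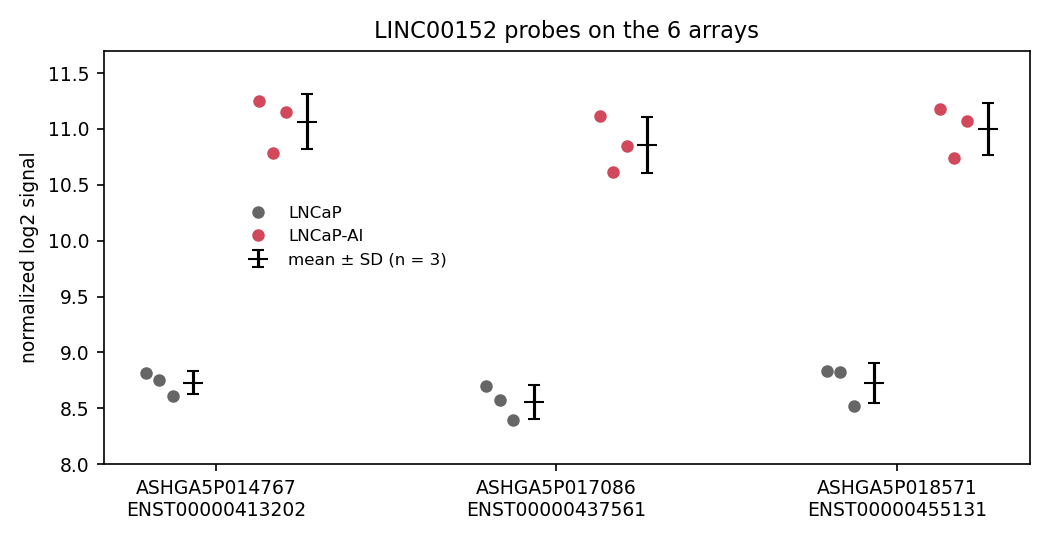
Normalized log2 signal (vertical axis) of the 3 LINC00152 probes (horizontal axis, with the transcript each is paired with) on the 3 LNCaP arrays (grey) and the 3 LNCaP-AI arrays (red), drawn from left to right as replicates a, b, c and 1, 2, 3, with mean ± SD. The LNCaP arrays lie between 8.40 and 8.84 and the LNCaP-AI arrays between 10.61 and 11.25 on all 3 probes.

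Against the background of the series, 2.82% of the 39107 tested probes were called higher in LNCaP-AI by limma (2-fold or more, with an adjusted p below 0.05), and all 3 LNCaP-AI arrays were above all 3 LNCaP arrays for 16.5% of them. All 3 LINC00152 probes fell in both groups, as the choice on this contrast leads one to find, and nothing is read from it. Of the 154 listed probes measured well above background by every array, the LINC00152 probes ranked 20, 21 and 23 by fold change, and the median of those listed probes was 2.64-fold. Among all 34923 tested probes measured on every array, 66 had a larger fold change than ASHGA5P014767, 67 a larger one than ASHGA5P017086 and 71 a larger one than ASHGA5P018571. The listed probe nearest to the limit was one of RP11-30J20.1, at 2.002-fold, and the nearest probe under the limit that passed the p limit was at 1.999-fold, so that LINC00152 stood well inside it. PCAT1, the lncRNA that the study goes on to examine, was 2.02-fold higher on the same arrays. The control genes GAPDH (glycolysis) and ACTB (cytoskeletal actin) had log2 fold changes of -0.01 and 0.01.

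The arrays themselves were of even quality. Between 64.6% and 67.3% of spots were well above background, the median intensity was 65.0 to 86.4, and Pearson's r across probes, which are not independent replicates, ran from 0.988 to 0.990 among the LNCaP arrays, from 0.980 to 0.988 among the LNCaP-AI arrays and from 0.962 to 0.971 between the lines. Slide 1 held LNCaP replicates a and b, and LNCaP replicate c shared slide 2 with the 3 LNCaP-AI arrays. Within slide 2, LNCaP-AI exceeded LNCaP replicate c by 2.45, 2.46 and 2.47 log2 on ASHGA5P014767, ASHGA5P017086 and ASHGA5P018571, a comparison with a single LNCaP array. The same differences from LNCaP replicates a and b were 2.28, 2.22 and 2.17 log2. The difference was thus at least as large within the slide as across slides, since LNCaP replicate c was the dimmest LNCaP array on each probe.

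The 3 probes were compared with each other next. Their log2 fold changes differed by at most 0.07. Because all probes are read on the same arrays, each difference was set against the spread of the difference between the same 2 probes from array to array within a line. The log2 fold change of ASHGA5P014767 exceeded that of ASHGA5P017086 by 0.04 (SE 0.06) and that of ASHGA5P018571 by 0.07 (SE 0.05), and ASHGA5P017086 exceeded ASHGA5P018571 by 0.03 (SE 0.06). These are descriptions over 3 arrays a line, with no test. The largest of the differences was 0.11 log2 without LNCaP replicate c and 0.04 log2 without LNCaP replicate b. To compare shapes without comparing levels between probes, each probe's 6 log2 signals were centred on their own mean. The root-mean-square difference between 2 such profiles was 0.06 log2 for each of the 3 pairs of LINC00152 probes, and no array set 2 of them apart by more than 0.12 log2. Among the other 34922 tested probes measured on every array, the nearest profile to each LINC00152 probe belonged to another LINC00152 probe, and the second nearest to the remaining one. The nearest probe other than these 3 stood 0.086 log2 from one of them, and it was not established which gene it reads. The nearest such probe stood 0.045 log2 away after normexp background correction with an offset of 50 and 0.066 log2 with none. Without LNCaP-AI replicate 2 the nearest was 0.024 log2 away, and without LNCaP replicate a 0.057 log2. In each of these 4 settings other probes came between LINC00152 probes. This likeness is partly set by the choice of members, because few probes have a fold change of this size.

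Which arrays of a line were higher or lower was not used in choosing the 3 probes. The p limit of the choice does favor probes with a small spread within lines, which can make their differences in this measure smaller. With each line's mean taken out, all 3 probes were highest in LNCaP replicate a (0.09 to 0.14 log2 above the mean of the line) and lowest in LNCaP replicate c (0.12 to 0.21 below, as deviations of -0.21 to -0.12). Among the LNCaP-AI arrays, all 3 were highest in replicate 1 (0.18 to 0.26 log2) and lowest in replicate 2 (-0.28 to -0.25 log2). The probes thus kept the same order of arrays within each line. The root-mean-square difference between 2 of them was 0.048 to 0.062 log2 in this measure. Between 0.251% and 2.54% of the 3553 to 3778 other probes of like mean signal (within 0.5 log2) came as near, and the median of those probes was 0.182 to 0.198 log2. Over all 34922 probes at most 1.75% came as near. This share rose to 13.0% without LNCaP-AI replicate 2, and to 5.84%, 3.41%, 4.40% and 2.81% without LNCaP replicates a, b and c and LNCaP-AI replicate 1, in that order, and was 2.60% without LNCaP-AI replicate 3. With all arrays it was 4.70% after normexp with an offset of 50 and 4.98% with none. Arrays shared by all probes, and quantile normalization, can move probes of like signal together, and their part in this likeness was not tested. The SD within lines was 0.19 to 0.21 log2 for the 3 probes, somewhat above the median of 0.16 among probes of like signal, of which 63.8% to 71.0% had a smaller SD.

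**Figure D2:**
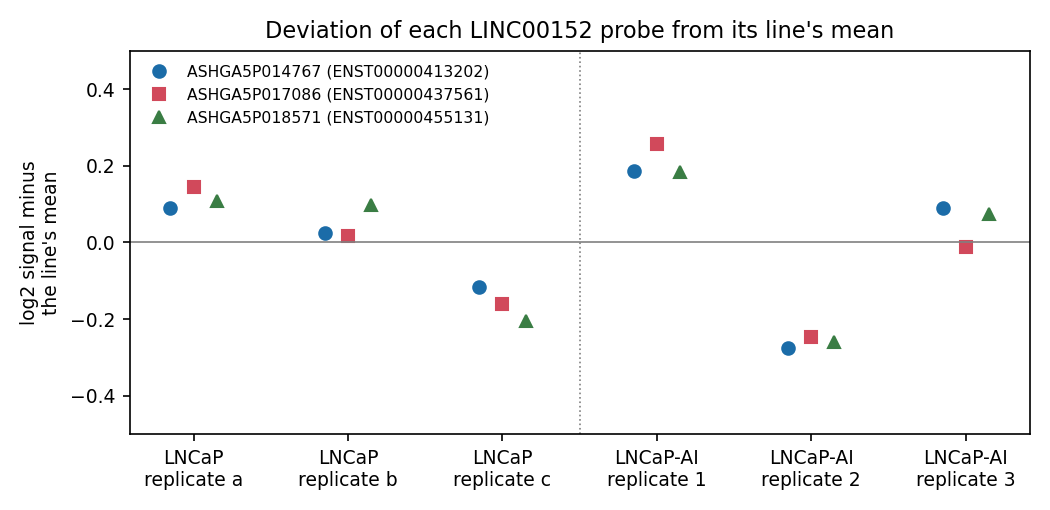
Log2 signal minus the mean of the line (vertical axis) for each array (horizontal axis, LNCaP left and LNCaP-AI right of the dotted line) and each LINC00152 probe (symbols). The symbols of an array lie within 0.10 log2 of each other, and LNCaP replicate c and LNCaP-AI replicate 2 lie below the line's mean for all 3 probes.

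A measure of how near 2 profiles can come is given by 20 coding genes whose probe is spotted 10 times on each array, so that all spots read the same sequence. Over pairs of spots of 1 such probe the median root-mean-square difference was between 0.02 log2 (RPLP1, a ribosomal stalk protein) and 0.19 log2 (GRM4, a glutamate receptor), with the largest values for the dimmest probes. PGK1, a glycolytic enzyme whose mean signal of 9.55 log2 was nearest to that of LINC00152, gave 0.05 log2. The SD of the log2 fold change was 0.042 over its 10 spots and 0.033 over the 3 LINC00152 probes. Whether each LINC00152 probe reads its own transcript alone was not tested, so these values describe probes and not separate transcripts. The spots of the LINC00152 probes lie apart on the array, in row 250 for ASHGA5P014767, row 21 for ASHGA5P017086 and row 230 for ASHGA5P018571.

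**Figure D3:**
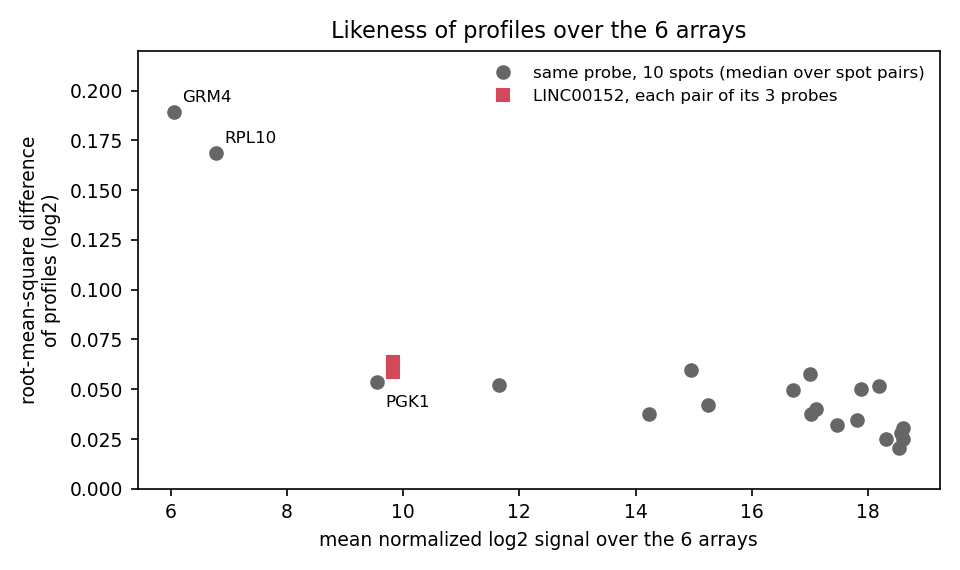
Root-mean-square difference between 2 centred profiles over the 6 arrays (vertical axis, log2) against the mean normalized log2 signal (horizontal axis) for 20 probes spotted 10 times (grey, median over pairs of spots) and for the 3 pairs of LINC00152 probes (red). The LINC00152 pairs, at 0.06 log2, lie beside PGK1 at 0.05 log2 and below the dim probes of GRM4 and RPL10.

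Several other genes of the list have more than 1 probe. Of 26 such genes, 20 had at least 2 probes that were well above background on all 6 arrays, and LINC00152 and AC007319.1 had 3 of them. The probes of AC007319.1 spanned 2.56 log2, from 5.84-fold to 34.4-fold, and those of LINC00152 spanned 0.07 log2. Over the other 19 genes the span ran from 0.04 to 2.56 log2 with a median of 0.20, and it was smaller than that of LINC00152 in 4, each read by 2 such probes. In none of the 19 was the largest profile difference between 2 probes smaller than in LINC00152, at 0.063 log2. TTY15 (0.069) and CHEK2P2 (0.078), each read by 2 probes, came near it. The signal levels of these genes were not compared, although dim probes gave the largest differences among the repeated spots. Among genes with 3 or more listed probes, the span was 0.05 log2 for RP11-65F13.2, 0.08 for RP11-838N2.4, 0.20 for RP11-705O24.1 and 0.21 for PCBP1-AS1, an antisense lncRNA, each from the 2 probes measured on every array. RP11-705O24.1 had a similar size of change, at 4.64-fold and 5.34-fold. These spans come from the contrast that chose the list and are not tested.

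**Figure D4:**
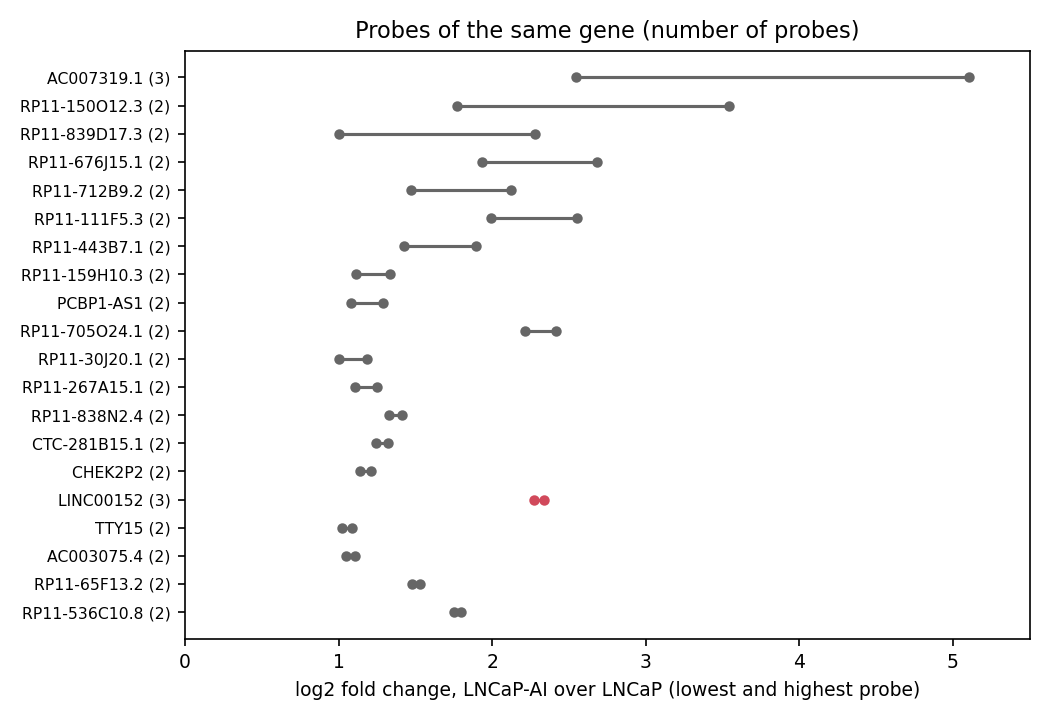
Lowest and highest log2 fold change, LNCaP-AI over LNCaP (horizontal axis), over the probes of each gene with at least 2 listed probes well above background on all arrays (vertical axis, number of such probes in brackets), ordered by their span. LINC00152 (red) spans 2.27 to 2.34, while AC007319.1 spans 2.55 to 5.10.

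Among the 151 other listed probes measured on every array, those with the profile most like the mean of the 3 LINC00152 probes were of TSPY5P (root-mean-square difference 0.11 log2 over 6 arrays, 5.53-fold), RP11-839D17.3 (0.11, 4.86-fold), KB-1460A1.5 (0.12, 4.39-fold), CTD-3094K11.1 (0.12, 5.25-fold) and a clone-named lncRNA read by ASHGA5P022142 (0.16, 5.28-fold). TSPY5P is a pseudogene of the TSPY family, and the others are known by clone names. RP11-839D17.3 shows how probes of 1 gene can part, since its other listed probe was 2.01-fold higher. Because most probes are listed without a gene name, none of the 14 genes tied to LINC00152 in earlier work, among them MIR4435-2HG, EGFR, AKT1 and MTOR, could be paired with a probe. The same holds for the 11 marker genes of luminal, basal and neuroendocrine prostate cells, such as KLK3, so the identity of the lines was not checked against them.

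The size of the difference depended little on how the intensities were processed. Over 12 other settings the log2 fold changes of the 3 probes lay between 2.09 and 2.47, or 4.27-fold to 5.56-fold, and every one of these 36 values was within the pooled SD between arrays of a line from the value given above. The lowest came from normexp background correction with an offset of 50, which adds a constant to every intensity, and the highest from the comparison within slide 2.

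**Figure D5:**
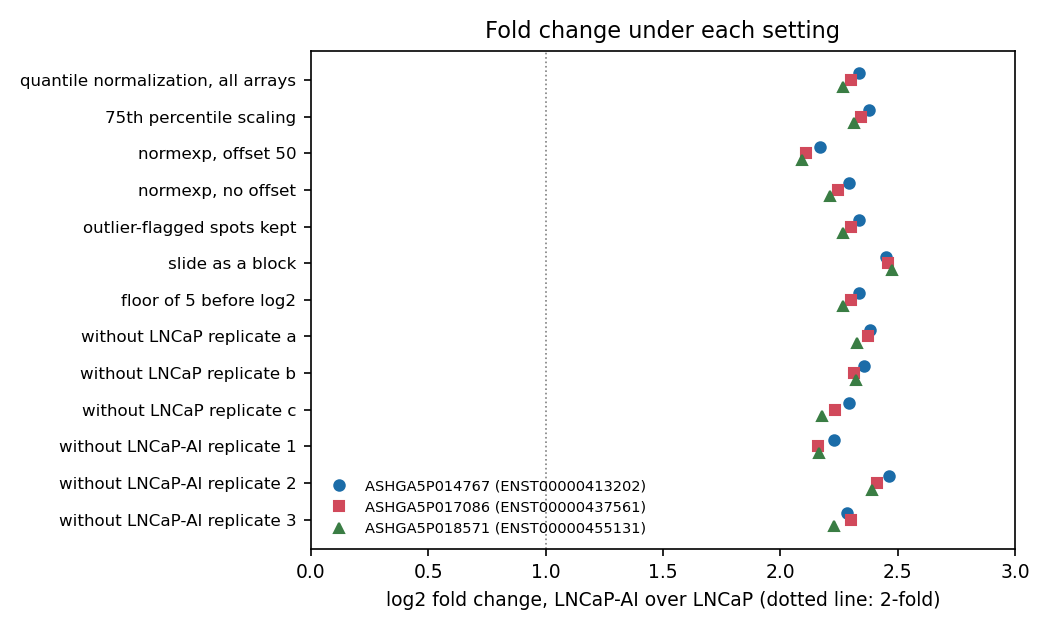
Log2 fold change, LNCaP-AI over LNCaP (horizontal axis, with the 2-fold limit dotted), of the 3 LINC00152 probes (symbols) under each processing setting and with each array left out (vertical axis). All values lie between 2.09 and 2.47.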

How the data were processed

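RNA of LNCaP and LNCaP-AI was hybridized by the authors to Arraystar Human LncRNA Microarray V3.0 arrays, 1 per sample, after rRNA removal and random-primed Cy3 labeling. The deposited intensity of each spot had been background-subtracted and spatially detrended by Agilent Feature Extraction 11.0.1.1 and was not normalized between arrays. The deposited flags (a score of 0 or 1 per spot) mark spots well above background, saturated or outlying. The array design uses hg19, and probe coordinates were not used here. Transcripts and symbols of probes were taken from the study's list, and its values were not used.

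Control spots and outlier-flagged spots were left out. A floor of 1 was set before log2, arrays were quantile-normalized as in the study, and spots of a probe were averaged. Probes that 3 or more arrays measured well above background were fitted with limma 3.58.1 (R 4.3.3), two-sided, with Benjamini-Hochberg adjustment over 39107 probes. The fit was tested on simulated arrays. Members, lists and comparisons were chosen with earlier results of these data known, and the comparison within lines and the promoter motifs were added after values were seen. One of the motifs searched is not reported here. Named were the LINC00152 probes, the 5 listed probes with the nearest profile, genes with 3 or more listed probes, GAPDH, ACTB and PCAT1. RP11-30J20.1, RPLP1, GRM4, RPL10, PGK1, TTY15 and CHEK2P2 were named after their values were seen. The series' design text gives 3 independent samples per line without saying whether these were separate cultures, and LNCaP replicates are called a, b and c because their titles give no plain number. Precision is limited by the number of arrays.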

Additional observations from a re-analysis of the deposited data

How the results depend on the processing

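The log2 fold changes of the LINC00152 probes kept their direction in all 12 alternatives run, between 2.09 and 2.47 with all arrays and between 2.16 and 2.47 with each array left out in turn. Their span of 0.07 log2 ran from 0.04 to 0.11 under the other scaling, under normexp and with each array left out. Each probe's nearest profile was that of another LINC00152 probe under the scalings and floors run, but with normexp, or without LNCaP replicate a or LNCaP-AI replicate 2, up to 2 other probes came between. limma called 1103 probes higher in LNCaP-AI, and 470 with normexp and an offset of 50; in the other alternatives the count was 764 to 1308. Normexp used the median spot signal in place of the mean, which the array files lack. With slide as a block the difference equals that within slide 2 and rests on LNCaP replicate c alone. No paired analysis was run because the labels state no pairing between LNCaP and LNCaP-AI samples. Depth on these arrays is signal over background, which did not limit the 3 probes.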
